A study of Mus musculus with 9 samples.

Results

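The gene segments that build antigen receptors were followed across sorted innate lymphoid cells (ILCs) of mouse skin. They are the variable, joining and constant segments of the T cell receptor chains (Tra, Trb, Trg and Trd) and of the immunoglobulin heavy and light chains (Igh, Igk and Igl). A probe set is a group of array probes read as 1 value. Every probe set with at least 1 annotated symbol of these loci was taken, which gave 62 of the 24922 probe sets on the array. Of these, 35 belonged to T cell receptor loci (30 Tra, 1 Trb, 3 Trg and 1 Trd) and 27 to immunoglobulin loci (9 Igh, 16 Igk and 2 Igl). Ighmbp2 and Tradd, a TNF receptor adapter whose symbol happens to begin with the same letters as a Tra segment, were not counted.

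Each of the 9 samples gave 1 one-colour Affymetrix array. All mice were female B6 animals with EGFP at one Ccr10 allele (CCR10+/EGFP), so that green fluorescence reports the chemokine receptor CCR10. They had either no stated Rag mutation (called Rag1-sufficient here) or were Rag1-/-, with no age given in the labels. CD45.2+ CD3- lineage-negative skin cells were sorted into Trizol as GFP+ or GFP- cells, with an exclusion panel that names CD3, CD5, CD11b, B220, 7-4, Gr-1 and a Ter antigen. The groups were Rag1-sufficient GFP+ (n = 2 arrays), Rag1-sufficient GFP- (n = 2), Rag1-/- GFP+ (n = 2) and Rag1-/- GFP- (n = 3). Nothing in the labels ties replicates to separate animals, so the p-values reflect how these arrays scatter, which may be technical scatter alone. The exclusion panel names CD3 and CD5 on T cells and B220 on B cells, and no chain encoded by the receptor loci themselves.

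Antigen receptor genes are assembled from separate segments in developing lymphocytes. The Rag1 and Rag2 recombinase cuts beside a variable, a diversity and a joining segment, end-joining enzymes link them, and the joined exon is spliced to a constant region. ILCs carry no such receptor, and Rag1-/- mice lack mature T and B cells. An unrearranged segment can still be transcribed when its locus is open. A signal from a V segment alone therefore does not tell a joined gene from a germline transcript, and the arrays hold no information on joining. Cells labelled Rag1-/- lack the recombinase that joins segments, so the question of a joined gene concerns the Rag1-sufficient arrays. In mouse skin, gamma-delta T cells are a resident population whose Trgv and Trdv segments are used in a fixed order during development.

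The annotation sets what can be said about single segments. Only 22 of the 62 sets had 1 symbol, and 40 had several, most often neighbouring members of 1 V family. Those with several are called by all their symbols below and stand for no single gene. The 62 sets carried 55 symbols, of which 54 matched the mouse reference GRCm38.p6 of RefSeq: 46 V segments, 2 V pseudogenes, 1 J segment and 5 constant regions. The reference places Tra and Trd on chromosome 14, Trg on 13, Trb and Igk on 6, Igh on 12 and Igl on 16. No T cell receptor set was annotated to a constant region, whereas 15 immunoglobulin sets were. In 37 of the 62 sets at least 1 annotated transcript accession was shared with another of them, so sets of 1 locus are not independent readings.

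Values are intensities on a linear scale, as deposited, with array medians between 74.1 and 77.6. Sets were tested where their mean exceeded 41.6 intensity units, the 30th percentile of all sets. That left 29 receptor sets (18 Tra, 1 Trb, 3 Trg, 3 Igh and 4 Igk) and set aside 33. No set passed through the level of 1 group alone. In 25 of the 62 sets all 9 arrays lay below this limit. Differences are on the scale of log2(intensity + 1), given as estimate ± SE from limma, with p-values adjusted by Benjamini-Hochberg over all 17445 tested sets.

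Several arrays stood apart from the rest of their group. The library labelled Rag1-/- GFP+ replicate 1 held mast cell transcripts at the level of the GFP- arrays. Cpa3, a mast cell protease, read 2085 there and between 19.9 and 21.5 on the other 3 GFP+ arrays, against 2009 to 4965 on the GFP- arrays. The summed intensity of the 12 mast cell genes measured was 5027 on that array, 1008 to 1460 on the other GFP+ arrays and 4938 to 10945 on the GFP- arrays. Rag1-sufficient GFP- replicate 2 had the highest summed keratinocyte signal, 3948 against 1636 to 2614 on the other 8 arrays. In whole-population samples fewer cells of a type and less RNA per cell cannot be told apart.

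No receptor set passed an adjusted p of 0.05 in any of the 6 comparisons drawn from the model. Between GFP+ and GFP- cells this was 0 of 29 sets in Rag1-sufficient mice, where 0.803% of all tested sets passed, and 0 of 29 in Rag1-/- mice, where 0% did. For Rag1-/- against Rag1-sufficient mice it was 0 of 29 in GFP+ cells (0.246% of all tested sets passed), 0 of 29 in GFP- cells (0.143%) and 0 of 29 in the mean of both fractions (0.0860%). The interaction, which asks whether the GFP+ to GFP- difference depended on genotype, gave 0 of 29 (0% of all tested sets). With limma, the receptor sets with an unadjusted p under 0.05 numbered 13 and 0 for the fractions of Rag1-sufficient and Rag1-/- mice (13.0% and 6.29% of all tested sets). They numbered 0, 17 and 16 for the genotypes in GFP+ cells, in GFP- cells and in the mean of both (6.82%, 17.3% and 9.84%), and 8 for the interaction (13.6%). With array weights, 1 set passed between the fractions of Rag1-sufficient mice (7.39% of all tested sets did) and 10 for the genotypes in GFP- cells (6.70%). Such weights let an array that deviates count for less. In a group of 2 arrays both deviate equally from their mean, so neither counts for less than its replicate.

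**Figure D1:**
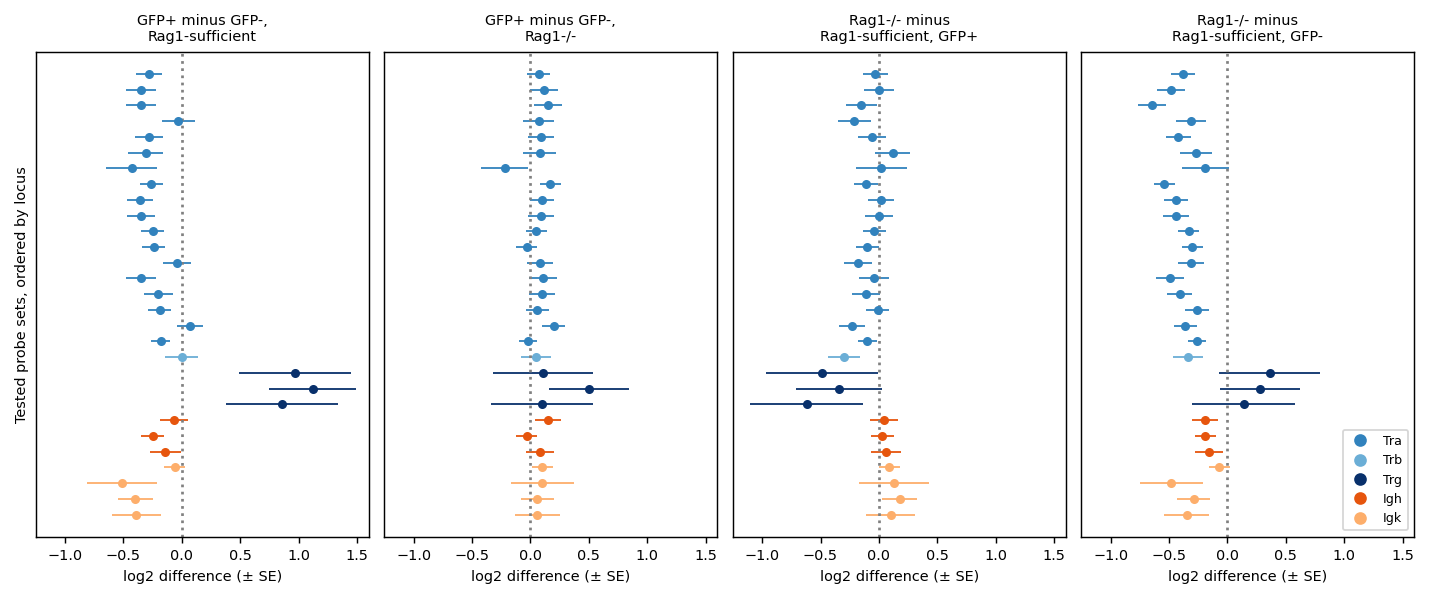
Log2 difference ± SE of the 29 tested probe sets, ordered and coloured by locus, in 4 panels, 1 for each comparison of 2 groups. The 18 Tra sets lie below 0 in the comparison of genotypes in GFP- cells, and the 3 Trg sets lie above 0 for GFP+ against GFP- cells in Rag1-sufficient mice, with no set past an adjusted p of 0.05.

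The gamma chain locus had 3 probe sets, and all were tested. Their symbols were Trgv1, Trgv2, Trgv4 and Trgv6, so the Trgv3, Trgv5 and Trgv7 of the reference had no set here. Trgv1, a variable segment of the T cell receptor gamma locus, was read by a probe set of its own (10403825). It read 1361 and 1748 in Rag1-sufficient GFP+ cells, 703 and 716 in Rag1-sufficient GFP- cells, 815 and 1831 in Rag1-/- GFP+ cells, and 1152, 707 and 786 in Rag1-/- GFP- cells. Every array therefore read Trgv1 far above the limit for testing, in both genotypes. Within Rag1-sufficient mice the GFP+ and GFP- arrays did not overlap, while the groups of Rag1-/- mice did.

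For Trgv1 the difference between GFP+ and GFP- cells was 1.12 ± 0.37 in Rag1-sufficient mice (means of 1555 ± 274 and 709 ± 8.99, SD, n = 2 each, adjusted p = 0.247 by limma). Over the other settings it lay between 0.94 and 1.30, and it passed the threshold only with array weights (1.12 ± 0.23, adjusted p = 0.0247 by limma), where 7.39% of all tested sets passed. In Rag1-/- mice the difference was 0.50 ± 0.34 (adjusted p = 0.692 by limma). It was 1.09 without Rag1-/- GFP+ replicate 1, the array with mast cell signal, and -0.08 without replicate 2. The difference between genotypes was -0.34 ± 0.37 in GFP+ cells (adjusted p = 0.924 by limma) and 0.28 ± 0.34 in GFP- cells (adjusted p = 0.685 by limma). That of GFP+ cells turned to 0.25 without Rag1-/- GFP+ replicate 1.

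Trgv2, Trgv4 and Trgv6 were read together by a pair of probe sets that share 9 annotated accessions. Trgv4 and Trgv6 are segments used by waves of gamma-delta T cells that form early in life, and in the reference they lie next to each other at the start of the locus, apart from the adjacent Trgv2 and Trgv1 near its end. The first set (10403821, annotated to Trgv6, Trgv4 and Trgv2) read 974 and 398 in Rag1-sufficient GFP+ cells and 338 and 300 in Rag1-sufficient GFP- cells. It read 277 and 707 in Rag1-/- GFP+ cells and 398, 385 and 446 in Rag1-/- GFP- cells. The highest value belonged to Rag1-sufficient GFP+ replicate 1 and the next to Rag1-/- GFP+ replicate 2, and the other 7 arrays lay between 277 and 446.

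The second set (10407940, annotated to the same 3 segments) read 719.6 and 290.3 in Rag1-sufficient GFP+ cells and 258 and 246 in Rag1-sufficient GFP- cells. It read 183 and 480.4 in Rag1-/- GFP+ cells and 275, 256 and 304 in Rag1-/- GFP- cells. The same 2 arrays were highest and the same array, Rag1-/- GFP+ replicate 1, was lowest. The differences between GFP+ and GFP- cells in Rag1-sufficient mice were 0.97 ± 0.48 for the first set (adjusted p = 0.452 by limma) and 0.86 ± 0.48 for the second (adjusted p = 0.529 by limma). Without Rag1-sufficient GFP+ replicate 1 the first set's difference was 0.32. In Rag1-/- mice the differences were 0.11 ± 0.43 and 0.10 ± 0.44, and both were 0.79 without Rag1-/- GFP+ replicate 1.

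The 3 Trg sets were the only tested receptor sets with non-overlapping groups in which GFP+ exceeded GFP- in Rag1-sufficient mice. Groups that do not overlap in that direction made up 29.0% of all tested sets, so 3 of 29 receptor sets is a lower share. For the interaction the 3 sets gave -0.62 ± 0.50 (Trgv1), -0.85 ± 0.64 (10403821) and -0.76 ± 0.65 (10407940), with adjusted p between 0.576 and 0.624 by limma. Genes used as markers of gamma-delta T cells were highest in sum on the same 3 GFP+ arrays as Trgv1. The 11 such genes measured summed to 9681 and 9859 in Rag1-sufficient GFP+ cells, 4835 and 4823 in Rag1-sufficient GFP- cells, 5402 and 13222 in Rag1-/- GFP+ cells, and 7005, 6218 and 6585 in Rag1-/- GFP- cells.

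Most of that sum came from Cd7 and Nkg7, which NK cells and ILCs also express. Cd7, a lymphocyte surface protein, read 4258 and 4069.9 in Rag1-sufficient GFP+ cells, 1626 and 1547 in Rag1-sufficient GFP- cells, 1670.2 and 4413 in Rag1-/- GFP+ cells, and 1880.2 to 2268 in Rag1-/- GFP- cells. Nkg7, a cytotoxic granule protein, read 2980 and 3081, 1074 and 1031, 1455 and 4575, and 1725 to 2052 in the same groups. Xcl1, a chemokine of NK and T cells, did not follow that order: it read 190 and 109 in Rag1-sufficient GFP+, 197 and 262 in Rag1-sufficient GFP-, 457 and 1901 in Rag1-/- GFP+ and 907, 573 and 832 in Rag1-/- GFP- cells. Maf, a transcription factor, read 762 to 1288. Sox13 and Blk, regulators tied more closely to gamma-delta T cells, read 129 to 158 and 48.4 to 74.8 over all arrays. Blk was highest on Rag1-sufficient GFP+ replicate 1, at 74.8 against 48.4 to 66.8 elsewhere. So was 5830411N06Rik, another gene of the list, at 154 against 129 to 149. Sox13 was highest on Rag1-sufficient GFP- replicate 1. Cd163l1, a scavenger receptor of gamma-delta T cells, read 193 and 188 in Rag1-sufficient GFP+ and 163 and 155 in Rag1-sufficient GFP- cells. It read 175 and 232 in Rag1-/- GFP+ and 188 to 194 in Rag1-/- GFP- cells. Klrk1, also in the list, read 437 and 559.8, 224 and 207, 102 and 361, and 155 to 228 in the same groups. Gzmb read 48.8 to 98.9. Zbtb16 was instead highest on the Rag1-sufficient GFP- arrays, at 119.8 and 137 against 73.6 to 113 elsewhere. None of the 11 tested genes passed the threshold in any comparison (0% to 0.803% of all tested sets did), and their part in the Trg values was not tested.

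Trdv2-2 (10419733), the delta chain segment on the array, was read above the limit on 1 array only. It read 69.2 and 22.9 in Rag1-sufficient GFP+ cells, 22.7 and 16.9 in Rag1-sufficient GFP- cells, 18.4 and 16.6 in Rag1-/- GFP+ cells, and 15.5, 17.1 and 15.2 in Rag1-/- GFP- cells. The array at 69.2, Rag1-sufficient GFP+ replicate 1, was also the highest for both sets annotated to Trgv2, Trgv4 and Trgv6. Its own replicate was no higher than 22.9, and the set was not tested. Fitted without the filter, the difference between GFP+ and GFP- cells in Rag1-sufficient mice was 0.99 ± 0.40 (adjusted p = 0.400 by limma), and between genotypes in GFP+ cells it was -1.15 ± 0.40 (adjusted p = 0.655 by limma).

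**Figure D2:**
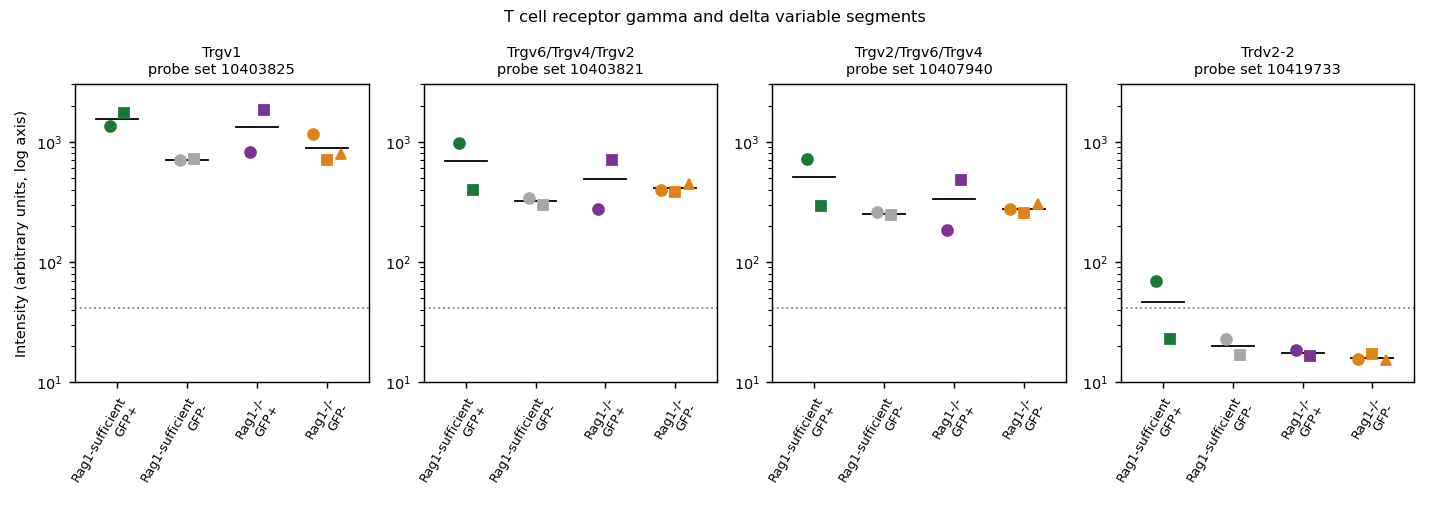
Intensity (log axis) of the 3 gamma chain probe sets and of Trdv2-2 by group, with a point per array whose shape marks the replicate number, bars at the group means and a dotted line at the limit of 41.6 for testing. Trgv1 separates GFP+ from GFP- arrays in Rag1-sufficient mice, and 1 array, Rag1-sufficient GFP+ replicate 1, is highest for the other 3 sets.

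The alpha chain was the most densely covered locus, with 30 probe sets for 19 symbols. Alpha chain V segments lie in a long, partly duplicated array, so that near-identical copies (the d and n versions of a family) share probes. Of the 30 sets, 18 were tested and 10 lay below the limit on all 9 arrays. Their levels varied little: in the 18 tested sets the highest array was 1.3 to 1.8 times the lowest. The set with the highest mean (10414805, annotated to Trav3n-3 and Trav3-3) read 210.3 and 234 in Rag1-sufficient GFP+ cells, 269.7 and 332 in Rag1-sufficient GFP- cells, 184 and 273 in Rag1-/- GFP+ cells, and 229, 299.8 and 261 in Rag1-/- GFP- cells. The next (10414906, with the same symbols) read 129 to 172, with Rag1-sufficient GFP- replicate 2 again the highest.

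In GFP- cells the alpha sets read lower in Rag1-/- than in Rag1-sufficient mice, with no call after adjustment. All 18 tested Tra sets had a difference below 0, against 49.9% of all tested sets, with a median of -0.37 (range -0.65 to -0.19) against 0.00 over all tested sets. The groups did not overlap for 16 of the 18, where 17.6% of all tested sets separated in that direction. An unadjusted p under 0.05 was reached by 16 of 18, against 7.27% of all tested sets in that direction, and an adjusted p under 0.05 by none. Since 19 of the 30 Tra sets share an accession with another receptor set, these counts hold repeated readings of the same transcripts.

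The smallest p in that comparison belonged to the probe set annotated to Trav3n-3, Trav6d-6 and Trav3-3 (10414814). It read 89.5 and 97.7 in Rag1-sufficient GFP- cells and 62.2, 69.5 and 60.2 in Rag1-/- GFP- cells, with 73.7 and 82.0 in Rag1-sufficient GFP+ and 72.0 and 71.5 in Rag1-/- GFP+ cells. The GFP- groups did not overlap, and the difference was -0.54 ± 0.09 (adjusted p = 0.0739 by limma, and between 0.0200 and 0.604 over the other settings). The largest difference was that of the set annotated to Trav12-2, Trav12n-2, Trav12n-1 and Trav12-1 (10414769). It read 153 and 168 in Rag1-sufficient GFP- cells and 106, 96.7 and 103 in Rag1-/- GFP- cells, a difference of -0.65 ± 0.12 (adjusted p = 0.0836 by limma). In GFP+ cells the same set read 142 and 111 in Rag1-sufficient and 115 and 111 in Rag1-/- mice, groups that overlap.

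A second set with those Trav12 symbols (10414772) gave a smaller difference of -0.31 ± 0.13 in GFP- cells (adjusted p = 0.261 by limma), from 87.8 and 113 against 82.8, 81.6 and 76.0. The third smallest p belonged to the set annotated to Trav9d-3, Trav3n-3, Trav9d-4 and Trav3-3 (10414866). It read 76.4 and 91.9 in Rag1-sufficient GFP- cells and 65.6, 63.4 and 55.6 in Rag1-/- GFP- cells, a difference of -0.44 ± 0.10 (adjusted p = 0.140 by limma). The sets 10414814, 10414769 and 10414866 were among the 10 Tra sets that passed with array weights, where 6.70% of all tested sets passed. Those weights treat the 2 Rag1-sufficient GFP- arrays alike.

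A single array was the highest for most alpha sets. Rag1-sufficient GFP- replicate 2 was the highest of the 9 arrays for 16 of the 18 tested Tra sets, and for 10.4% of all tested sets. Rag1-/- GFP- replicate 3 was the lowest for 12 of the 18, and for 16.7% of all tested sets. Relative to each set's own mean over the arrays, the median Tra set stood 0.38 (log2) higher on Rag1-sufficient GFP- replicate 2 and 0.17 higher on replicate 1 of that group. It lay between -0.09 and -0.01 on the other arrays, except -0.22 on Rag1-/- GFP- replicate 3. Without Rag1-sufficient GFP- replicate 2, all 18 Tra sets stayed below 0 with a median of -0.29, 8 had an unadjusted p under 0.05 and the smallest adjusted p was 0.604 by limma. That array also had the highest keratinocyte sum: Krt14, a keratin of basal keratinocytes, read 782 there and 96.8 to 375 elsewhere. Both Rag1-sufficient GFP- arrays also had the highest sums of mast cell, dendritic and macrophage genes. For mast cell genes these were 10749.5 and 10945 on replicates 1 and 2, against 1008 to 6283 on the other arrays. For dendritic genes they were 2028 and 2466 against 854 to 1509, and for macrophage genes 552 and 620 against 437 to 481. Most of the dendritic sum was H2-Ab1, at 1488 and 1889 against 382 to 1079. Cd207, Xcr1, Flt3 and Clec9a were also highest on both arrays, but Itgax, Zbtb46 and Epcam were not. Among the macrophage genes only Cd14 and Mrc1 were highest on both, and C1qb was highest in Rag1-sufficient GFP+ cells. The part of RNA from any of these cell types in the Tra values was not tested.

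**Figure D3:**
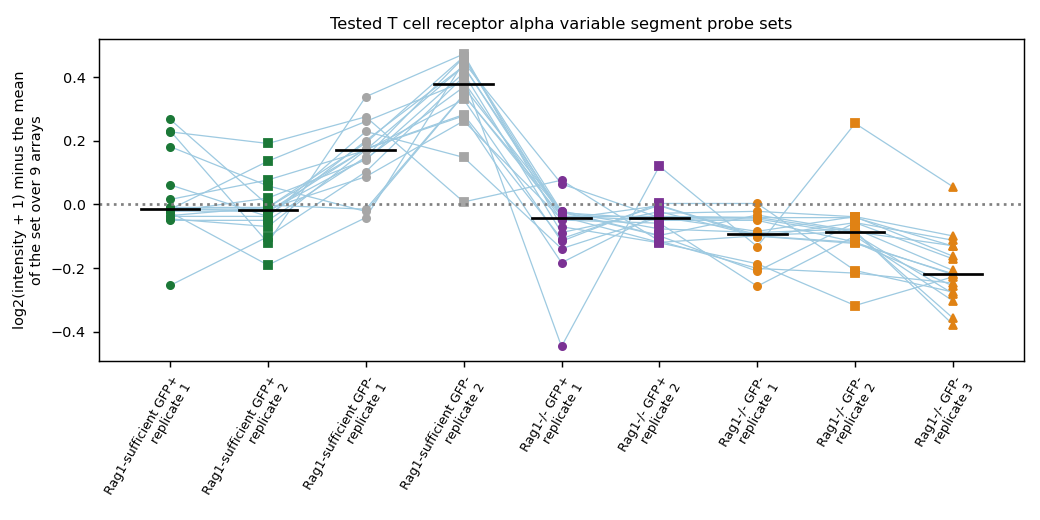
Log2(intensity + 1) of the 18 tested alpha chain probe sets on each of the 9 arrays, minus the mean of the set over all arrays, with black bars at the median. The median is 0.38 on Rag1-sufficient GFP- replicate 2, 0.17 on replicate 1 of that group and -0.22 on Rag1-/- GFP- replicate 3.

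The alpha sets of Rag1-sufficient mice mostly read lower in GFP+ than in GFP- cells. In this comparison 17 of the 18 Tra sets lay below 0 (46.3% of all tested sets did), with a median of -0.27. The groups did not overlap in that direction for 14 of 18, where 21.2% of all tested sets did so. An unadjusted p under 0.05 was reached by 10 Tra sets, all with GFP+ lower, against 4.82% of all tested sets in that direction. The smallest adjusted p, 0.223 by limma, belonged to the set annotated to Trav9d-3, Trav3n-3, Trav9d-4 and Trav3-3 (10414866), with 65.6 and 64.5 in GFP+ and 76.4 and 91.9 in GFP- cells, a difference of -0.36 ± 0.11. The set annotated to Trav9d-3 and Trav9d-4 (10414891) read 107 on both GFP+ arrays and 123 and 153 on the GFP- arrays, a difference of -0.35 ± 0.12 (adjusted p = 0.270 by limma). Without Rag1-sufficient GFP- replicate 2, no Tra set had an unadjusted p under 0.05 and the median was -0.19.

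In Rag1-/- mice the alpha sets gave small differences between the fractions. For GFP+ against GFP- cells 15 of 18 Tra sets lay above 0 (48.0% of all tested sets did), with a median of 0.09 and no unadjusted p under 0.05. The groups did not overlap for 6 sets with GFP+ higher, where 5.27% of all tested sets did so. Without Rag1-/- GFP- replicate 3, the array at which most Tra sets were lowest, the median was 0.03, and without Rag1-/- GFP+ replicate 1 it was 0.09. Between genotypes in GFP+ cells 14 of 18 lay below 0 (55.8% of all tested sets did) with a median of -0.05. The groups did not overlap for 7 sets with Rag1-/- lower, against 18.5% of all tested sets.

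The interaction lay above 0 for all 18 Tra sets, against 48.2% of all tested sets, with a median of 0.33 and 7 sets with an unadjusted p under 0.05 (3.78% of all tested sets in that direction). The smallest adjusted p was 0.277 by limma, for the set annotated to Trav3n-3, Trav6d-6 and Trav3-3 (10414814), at 0.43 ± 0.14. Next came the set 10414866 with 0.46 ± 0.15 and an adjusted p of 0.279 by limma. Without Rag1-sufficient GFP- replicate 2 no Tra set had an unadjusted p under 0.05, 2 of the 18 lay below 0 and the median was 0.24. The interaction, the difference between fractions in Rag1-sufficient mice and that between genotypes in GFP- cells all use the same 2 Rag1-sufficient GFP- arrays.

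Trav13-5 and Trav19 were the tested alpha segments read by sets of their own. Trav13-5 (10414973) read 119 and 116 in Rag1-sufficient GFP+, 123 and 102 in Rag1-sufficient GFP-, 107 and 93.6 in Rag1-/- GFP+ and 88.1, 87.2 and 85.3 in Rag1-/- GFP- cells. Unlike most alpha sets it was not highest on Rag1-sufficient GFP- replicate 2, and both genotype comparisons had groups that did not overlap. Separation with Rag1-/- lower was seen for 18.5% of all tested sets in GFP+ and 17.6% in GFP- cells. The share that separated in both was not computed. For Trav13-5 the differences between genotypes were -0.23 ± 0.11 in GFP+ cells (adjusted p = 0.763 by limma), -0.36 ± 0.10 in GFP- cells (adjusted p = 0.182 by limma) and -0.30 ± 0.08 in the mean of both (adjusted p = 0.213 by limma). Trav19 (10414981) ranged from 66.7 to 86.4, with both ends at replicate 1, of Rag1-/- GFP+ and Rag1-sufficient GFP- cells.

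In the mean of both fractions 28 of the 29 tested receptor sets were lower in Rag1-/- mice, where 53.2% of all tested sets were, with a median of -0.20 against -0.01. An unadjusted p under 0.05 was reached by 16 sets, 15 of them Tra, all with Rag1-/- lower, against 5.70% of all tested sets in that direction. The smallest adjusted p was 0.123 by limma, for the set annotated to Trav3n-3, Trav6d-6 and Trav3-3 (-0.33 ± 0.07). Without Rag1-sufficient GFP- replicate 2, the number of Tra sets with an unadjusted p under 0.05 was 4, with 6.50% of all tested sets in that fit.

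Trbv1 (10537558), the one beta chain segment on the array, is a V segment set apart from the main Trbv group. It read 152 and 119.9 in Rag1-sufficient GFP+, 146 and 124 in Rag1-sufficient GFP-, 109 on both Rag1-/- GFP+ arrays and 106, 113 and 99.2 in Rag1-/- GFP- cells. All 4 Rag1-sufficient arrays thus lay above all 5 Rag1-/- arrays, the closest at 119.9 against 113. Groups that do not overlap with Rag1-/- lower made up 18.5% of all tested sets in GFP+ and 17.6% in GFP- cells. The share over both fractions together was not computed. The differences between genotypes were -0.30 ± 0.14 in GFP+ cells (adjusted p = 0.735 by limma, the smallest of the 29 sets there) and -0.34 ± 0.13 in GFP- cells (adjusted p = 0.236 by limma). The sorted fractions of Rag1-sufficient mice differed by 0.00 ± 0.14.

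The heavy chain locus was read by sets for the constant regions only, alone or with V segments. Ighm encodes the constant region of IgM, the first class a B cell makes, and had 3 probe sets of its own. One (10402991) read 97.3 and 101 in Rag1-sufficient GFP+, 97.8 and 111 in Rag1-sufficient GFP-, 103 and 101 in Rag1-/- GFP+, and 99.4, 94.0 and 81.7 in Rag1-/- GFP- cells. Its groups overlapped for the fractions of Rag1-sufficient mice and for the genotypes in GFP- cells, and in the other comparisons they stood apart by little. The largest of the 4 differences between groups was -0.19 ± 0.11, between genotypes in GFP- cells (adjusted p = 0.386 by limma). The other Ighm sets were not tested: 10402864 read 39.7 to 41.9 and 10403069 read 14.2 to 22.5.

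Igha encodes the constant region of IgA, the class of mucosal surfaces, and its 2 sets lay about the limit. The set 10403034 read 43.0 and 42.8 in Rag1-sufficient GFP+, 51.0 and 52.7 in Rag1-sufficient GFP-, 31.2 and 41.1 in Rag1-/- GFP+ and 41.4, 39.7 and 32.0 in Rag1-/- GFP- cells. All 4 Rag1-sufficient arrays lay above all 5 Rag1-/- arrays, the closest at 42.8 against 41.4. The share of all sets that separate in this way was not computed. Fitted without the filter, the difference between genotypes in GFP- cells was -0.46 ± 0.13 (adjusted p = 0.209 by limma). The set 10403063 shares all 7 of its accessions with the first, and read 25.7 to 43.5, lowest on Rag1-/- GFP+ replicate 1 and highest on Rag1-sufficient GFP- replicate 2.

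Ighg3, the constant region of IgG3, read 17.7 to 22.3 with a set of its own (10403046). A pair of sets annotated to Ighg3, Igha, Ighv1-33 and Ighv1-26 was tested. The set 10403015 read 57.6 to 63.3 on 8 arrays and 77.7 on Rag1-sufficient GFP- replicate 2, and 10403018 read 58.9 to 73.3 on 8 arrays and 82.6 on that array. For 10403015 the difference between GFP+ and GFP- cells in Rag1-sufficient mice was -0.25 ± 0.10 (adjusted p = 0.346 by limma), and -0.11 without that array. The set annotated to Ighv3-6 and Igha (10403009) read 9.88 to 13.8.

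The kappa light chain locus had 16 sets, 4 of them tested, and 10 below the limit on all arrays. Igkv19-93 (10545182), a kappa V segment, read 89.5 to 104, with no difference between groups beyond 0.10 in either direction. The set annotated to Igkv4-59, Igkv4-70, Igkv4-80 and the constant region Igkc (10545184) read 58.0 and 51.6 in Rag1-sufficient GFP+, 57.4 and 106 in Rag1-sufficient GFP-, 47.5 and 76.1 in Rag1-/- GFP+ and 64.9, 56.5 and 47.8 in Rag1-/- GFP- cells. The value of 106 belonged to Rag1-sufficient GFP- replicate 2, and the replicate of that array lay within the range of the other groups. The differences were -0.51 ± 0.30 for GFP+ against GFP- cells in Rag1-sufficient mice (adjusted p = 0.559 by limma) and -0.48 ± 0.27 between genotypes in GFP- cells (adjusted p = 0.388 by limma). They were -0.07 and -0.04 without Rag1-sufficient GFP- replicate 2.

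The other 3 sets annotated to Igkc had their highest value on that same array. It read 61.7 for 10545196, against 37.4 to 44.9 elsewhere, 68.4 for 10545198 against 38.3 to 50.0, and 54.4 for 10545187 against 27.9 to 42.0. For 10545196 the difference between GFP+ and GFP- cells in Rag1-sufficient mice was -0.40 ± 0.15 (adjusted p = 0.302 by limma), and -0.15 without that array. The set annotated to Igkv10-96 and the joining segment Igkj1 (10545175), just at the limit, read 53.9 on that array and 36.5 to 45.7 elsewhere. The lambda locus, the minor light chain locus of mice, stayed low: the 2 sets annotated to Iglv1, Iglv2 and Iglc1 read 14.7 to 18.8 and 21.5 to 29.1.

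**Figure D4:**
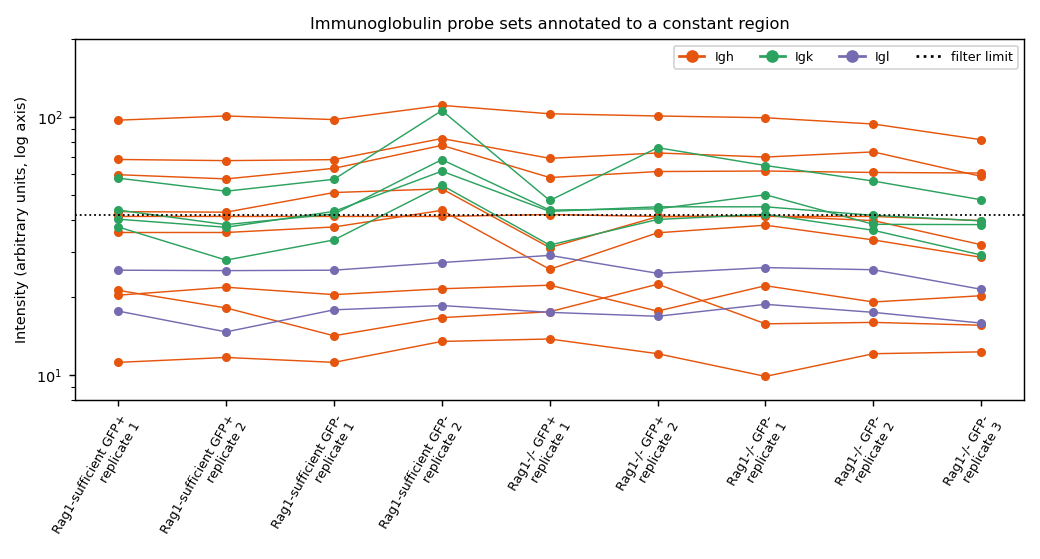
Intensity (log axis) of the 15 immunoglobulin probe sets annotated to a constant region on each of the 9 arrays, coloured by locus, with a dotted line at the limit of 41.6 for testing. The sets annotated to Igkc peak on Rag1-sufficient GFP- replicate 2, while the tested Ighm set stays between 81.7 and 111.

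The 7 tested immunoglobulin sets all lay below 0 for GFP+ against GFP- cells of Rag1-sufficient mice (median -0.25, with 46.3% of all tested sets below 0) and between genotypes in GFP- cells (median -0.19, with 49.9%). These medians were -0.07, with 6 of the 7 below 0, and -0.04, with 7 of 7, when Rag1-sufficient GFP- replicate 2 was left out. All 7 lay above 0 between genotypes in GFP+ cells (median 0.09), where 44.1% of all tested sets did. Rag1-sufficient GFP- replicate 2 was the highest array for 6 of the 7, as for the alpha sets. None passed the adjusted threshold, 2 had an unadjusted p under 0.05 for the fractions of Rag1-sufficient mice (13.0% of all tested sets did), and none had one between genotypes in either fraction (6.82% in GFP+ and 17.3% in GFP- cells). For those fractions none had one without Rag1-sufficient GFP- replicate 2, where 6.31% of all tested sets did.

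Partners of the T cell receptor were read beside its segments. Cd3e, a signalling chain of the receptor complex, read 233 and 157 in Rag1-sufficient GFP+, 270.3 and 238 in Rag1-sufficient GFP-, 763 and 1981 in Rag1-/- GFP+ and 925, 765 and 942 in Rag1-/- GFP- cells. All 5 Rag1-/- arrays lay above all 4 Rag1-sufficient arrays, and the share of all tested sets that separate in this way was not computed. Cd3e rose by 2.68 ± 0.39 in GFP+ cells (adjusted p = 0.0419 by limma) and by 2.23 ± 0.27 in the mean of both fractions (adjusted p = 0.0410 by limma). Without 1 array at a time these differences lay between 1.99 and 3.36 and between 1.88 and 2.57. Both stayed past the threshold without either Rag1-/- GFP+ array, with adjusted p of 0.0164 and 0.00691 without replicate 1 and of 0.0307 and 0.0155 without replicate 2 by limma. Without any other single array neither passed, with adjusted p of 0.0530 to 0.365 by limma. In GFP- cells it was 1.78 ± 0.36 (adjusted p = 0.101 by limma).

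Cd3g, another chain of the complex, read 1767 and 1408 in Rag1-sufficient GFP+, 891 and 932 in Rag1-sufficient GFP-, 1831 and 3512 in Rag1-/- GFP+ and 2638, 2873 and 4859 in Rag1-/- GFP- cells. Its difference between genotypes in GFP- cells was 1.87 ± 0.32 (adjusted p = 0.0739 by limma). Of the 5 partner genes tested, 1 passed in each of the 2 comparisons named for Cd3e and none in the other 4. In those 2 comparisons 0.246% and 0.0860% of all tested sets passed. Cd3d read 27.1 to 125, Cd247, the zeta chain, 124 to 249.8, and Ptcra, the pre-T alpha chain that pairs with a new beta chain in the thymus, 50.4 to 73.2.

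No gene of the recombination machinery passed the threshold. Rag1 read 28.4 to 31.4, Rag2 13.8 to 15.7 and Dntt, which adds bases at the joins, 14.9 to 20.6, all below the limit on every array, so the level of Rag1 gave no check of the genotype. Of 15 genes of recombination and end joining, 14 were on the array and 9 were tested. None passed in any of the 6 comparisons, where 0% to 0.803% of all tested sets did. Those with the highest means were Hmgb2, a chromatin protein that assists the recombinase, at 297 to 966, Paxx, an end-joining factor, at 186 to 304, Hmgb1 at 156 to 228 and Polm, an end-joining polymerase, at 75.9 to 92.9.

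Markers of T and B cells were measured beside the receptor sets. Of 21 T cell genes 19 were on the array, 17 were tested and none passed in any comparison (0% to 0.803% of all tested sets did). Their sum was 16082 to 16896 in Rag1-sufficient GFP+, 13659.6 to 14033 in Rag1-sufficient GFP-, 13373 to 17261 in Rag1-/- GFP+ and 14756 to 15882 in Rag1-/- GFP- cells. The leading ones, Icos (6561 to 7724), Lcp2 (1715 to 2395), Cd27 (1502 to 3168) and Lat (709 to 1221), are also expressed by ILCs. Cd4 read 59.5 to 131, Cd8a 51.7 to 67.5 and Cd5, a marker of the exclusion panel, 59.8 to 82.1. Other members ranged more widely without passing. The smallest adjusted p was that of Ubash3a between genotypes in GFP- cells (0.88 ± 0.13, adjusted p = 0.052 by limma). There it read 293 and 289 in Rag1-sufficient and 501, 576 and 540.2 in Rag1-/- mice. In GFP+ cells its difference was -0.19 ± 0.14 (adjusted p = 0.869 by limma). Trat1, an adapter that binds the receptor complex, read 33.5 to 116 on the Rag1-sufficient arrays and 113 to 730 on the Rag1-/- arrays, with a difference between genotypes in GFP- cells of 2.70 ± 0.66 (adjusted p = 0.148 by limma). Themis, a signalling protein of developing T cells, read 36.6 to 116. Cd28, a costimulatory receptor, read 209.6 to 312 on the Rag1-sufficient and 68.3 to 154 on the Rag1-/- arrays, a difference in the mean of both fractions of -1.13 ± 0.24 (adjusted p = 0.130 by limma).

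Of 19 B and plasma cell genes 18 were on the array, 11 were tested and none passed (0% to 0.803% of all tested sets did). Their sum was 2925 to 3762 over the arrays, led by Xbp1 (1222 to 2018), Cd72 (346 to 849), Sdc1 (229.6 to 354) and Prdm1 (168 to 330.2), which other cells of the skin also express. The B cell surface proteins Ms4a1 (15.3 to 17.7) and Cr2 (17.7 to 19.5) lay below the limit on every array. Other surface proteins of the list passed the filter: Tnfrsf13c (144 to 195), Tnfrsf13b (45.7 to 62.7) and Cd22 (41.3 to 49.4). So did the transcription factors Ebf1 (68.9 to 229.6), Pax5 (51.1 to 60.9) and Spib (44.9 to 57.6). Of 8 genes for partners of the B cell receptor, 6 were on the array, 4 were tested and none passed, with the same shares of all tested sets. Cd79b, a signalling chain of that receptor, read 108 to 158, whereas its partner Cd79a read 20.4 to 26.7 and Jchain, which links IgA and IgM units, 14.7 to 18.1. Vpreb2, Vpreb1 and Vpreb3 read 125 to 154, 55.9 to 80.2 and 46.6 to 70.7. The part of T or B cells in the receptor values was not tested beyond these levels.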

How the data were processed

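RNA of 9 sorted samples was hybridised to 1-colour Affymetrix arrays. The authors deposited 1 linear intensity per probe set and array, without detection calls; per the submitters' processing notes MAS5 was used, with version and role not given. How the arrays were brought to 1 scale is not given in the sources used here, nor is a genome build. Equal values on at least 2 arrays occurred in 45.2% of the receptor sets and in 50.0% of all sets, so group spreads can be too small. With 9 arrays, their number limits how precise a value is.

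Symbols came from the platform annotation. Intensities were taken as log2(value + 1), which understates changes of dim sets. Sets with a mean below the 30th percentile were left out (7477 of 24922). A model with 1 mean per group was fitted to all 17445 sets with limma 3.58.1 in R 4.3.3 (eBayes with trend, 5 residual and 3.56 prior degrees of freedom), tested two-sided with Benjamini-Hochberg adjustment at 0.05, and checked on simulated data.

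The members and gene lists were chosen with earlier results of these data known. Named are sets past the threshold, all sets of a constant region, the 3 with the smallest p per comparison and the 2 with the highest mean per locus; of other lists, genes past the threshold and the up to 4 with the highest mean. Any other set or gene named, such as Cd4, Rag1, Trav19 or Sox13, was chosen after its values were seen. Alternatives were the pseudocount, the filter, quantile normalization, no trend, array weights, a replicate block, only the groups compared, and leaving out each array. No sequences are shown.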

Additional observations from a re-analysis of the deposited data

How the results depend on the processing

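The count of receptor sets past an adjusted p of 0.05 was 0 in all 6 comparisons under every alternative run (100 values), leaving out each array included, except with array weights: 1 set between the fractions of Rag1-sufficient mice (7.39% of all tested sets passed) and 10 sets between genotypes in GFP- cells (6.70%). With the replicate number as a block the count was 0 in each comparison, and the number of Tra sets with an unadjusted p under 0.05 between genotypes in GFP- cells went from 16 to 13. The labels state no pairing by replicate number. The correlations of same-numbered deviations between groups ran from -0.4341 to 0.2371. They rest only on the difference between replicates 1 and 2 in each group, so they cannot tell whether samples were paired. With that block the adjusted p of Cd3e was 0.130 between genotypes in GFP+ cells and 0.0996 in the mean of both fractions, with no filter 0.0665 and 0.0568, and with no intensity trend 0.0641 and 0.0513. With only the 2 groups compared it was 0.685 in GFP+ cells.

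The gamma chain sets turned direction when 1 array was left out. Without Rag1-/- GFP+ replicate 2 the difference between fractions in Rag1-/- mice was -0.08 for Trgv1, -0.56 for 10403821 and -0.60 for 10407940, in ranges of -0.08 to 1.09, -0.56 to 0.79 and -0.60 to 0.79. Between genotypes in GFP+ cells it was 0.25 for Trgv1, 0.18 for 10403821 and 0.07 for 10407940 without Rag1-/- GFP+ replicate 1, and 0.15 and 0.03 for the latter sets without Rag1-sufficient GFP+ replicate 1. The ranges were -0.92 to 0.25, -1.17 to 0.18 and -1.31 to 0.07. The number of Tra sets below 0 also moved: between the fractions of Rag1-/- mice from 3 to 0 without Rag1-/- GFP+ replicate 1, and for the interaction from 0 to 2 without Rag1-sufficient GFP- replicate 2.

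The median over the tested receptor sets between genotypes in GFP- cells, -0.31, was -0.22 with no filter, -0.49 without Rag1-sufficient GFP- replicate 1 and -0.17 without replicate 2. For the fractions of Rag1-sufficient mice, -0.25, it was -0.11 both with no filter and without Rag1-sufficient GFP- replicate 2. These medians hold other sets when the filter changes. The cause of the other shifts was not tested. Groups held 2 or 3 arrays, and 25 of the 62 sets lay below the limit on every array.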

Other observations

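Factors that open receptor loci or drive germline transcription were well measured. Of 20 such genes 18 were on the array and tested. None passed the threshold in any of the 6 comparisons with limma, where 0% to 0.803% of all tested sets did. Id2, an inhibitor of E proteins that ILCs depend on, read 6727 to 7905 over the arrays, and Il7r, the interleukin 7 receptor chain whose signal opens the gamma chain locus, 2566 to 3806. Gata3, a regulator of type 2 lymphocytes, read 2263 to 4017, and Runx3, a regulator of T cell and ILC fates, 644 to 1179.

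Of 9 genes of class switching and germline constant region transcription, 7 were on the array and tested. None passed in any comparison with limma (0% to 0.803% of all tested sets did). Stat6, which relays interleukin 4 signals, read 299.7 to 511, Irf4, a lymphocyte transcription factor, 153 to 236, Batf, its partner, 126 to 200.5 and Ung, a uracil glycosylase, 72.0 to 103.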
